A study of Mus musculus with 8 samples.

Results

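The effect of STAT3 loss on messenger RNA was compared between CD8 and CD4 donor T cells from spleen. For each gene, the STAT3KO minus WT change in CD4 T cells was subtracted from the same change in CD8 T cells, on the log2 scale, in all 8 spleen libraries and with the replicate number as a block. A negative value therefore means that the change in CD8 T cells lay below that in CD4 T cells, and a positive value that it lay above. Of 25078 gene rows, 12428 had enough reads to be tested. The difference between the lineages was called for 403 of them (3.24%) in edgeR's quasi-likelihood F test, at an adjusted p (Benjamini-Hochberg) under 0.05 that holds for every call below. It was called higher for 144 genes (1.16%) and lower for 259 genes (2.08%).

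The libraries came from irradiated BALB/c recipients of C57BL/6 donor T cells, 6 days after hematopoietic cell transplantation (HCT). WT donors were unmodified C57BL/6 mice, and STAT3KO donors were C57BL/6 Stat3 fl/fl mice carrying CD4-Cre, a recombinase whose promoter is active in thymocytes that express both coreceptors, so that cells of both lineages lose Stat3. The recipients were WT in all 4 groups, and they also received T cell-depleted bone marrow of WT C57BL/6 mice. Donor-type T cells were sorted by H-2Kb, TCRβ and CD4 or CD8, and each library pooled 3 recipients, which left 2 libraries for each genotype and lineage. The block takes out the part of the spread between such pools that same-numbered libraries shared. The p-values measure the spread that is left. A library describes sorted cells as a mixture, so more cells of a state and more RNA per cell cannot be told apart.

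STAT3 is a transcription factor that is phosphorylated downstream of cytokine receptors such as those for IL-6, IL-10, IL-21 and IL-23. In CD4 T cells it is best known for the Th17 and follicular helper programs, and in CD8 T cells for the formation of memory. In transplantation across a major histocompatibility barrier, donor T cells of both lineages meet host antigens and divide within days, and CD8 T cells acquire granzymes and perforin.

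Libraries held between 20171396 and 23282757 counts. Stat3 itself (chromosome 11, 100886806 to 100939540 on mm10) had 436 and 428 counts scaled to a common library size (CPM) in WT CD4, 138 and 141 CPM in STAT3KO CD4, 431 and 436 CPM in WT CD8, and 120 and 143 CPM in STAT3KO CD8 libraries, replicates 1 and 2. It thus fell to a similar level in each lineage, and its difference of -0.10 (SE 0.12, edgeR adjusted p 0.779) was not called. Some exon bases of Stat3 lie under Stat5a on the other strand. Cd4 was at 1361 to 1602 CPM in the CD4 libraries and at 1.04 to 8.16 CPM in the CD8 libraries, while Cd8a was at 819 to 984 CPM in CD8 and at 1.70 to 15.995 CPM in CD4 libraries. Cd3e was between 590 and 740 CPM by library total in all 8 libraries. Markers of other cells were low but uneven. The 12 macrophage and monocyte genes summed to between 28.1 and 64.3 CPM in the replicate 1 libraries and to between 108 and 203 CPM in the replicate 2 libraries. The 11 pancreatic acinar genes, which encode digestive enzymes, summed to 74.7 CPM in STAT3KO CD8 replicate 2, led by Ctrb1, and to between 4.45 and 15.3 CPM elsewhere. Erythroid genes summed to between 1.39 and 23.7 CPM with the globins at 0, neutrophil genes to between 3.64 and 22.8 CPM, and hepatocyte genes to between 0.364 and 1.26 CPM. The sums for B cell genes (37.5 to 171 CPM) came mostly from Cd22, with Ms4a1 at no more than 0.147 CPM. The dendritic cell sums (24.9 to 278 CPM) came mostly from Itgax and Ccr9, with Clec9a and Siglech at 0. The NK cell genes summed to between 99.99 and 142 CPM in CD4 and between 592 and 1120 CPM in CD8 libraries, mostly from Gzma, with Ncr1 at no more than 0.246 CPM and Klra8 at 0. The part of such cells in the results was not tested.

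Most called differences came with a larger effect in CD4 T cells. Of the 403 genes, 361 (89.6%) had the larger absolute effect in CD4 T cells, against 58.8% of all genes tested. Among the 259 genes with a lower difference, 176 rose with STAT3 loss in CD4 T cells and were not called in CD8 T cells, 64 rose in both lineages, 12 fell in CD8 T cells with no call in CD4 T cells, 5 rose in CD4 and fell in CD8 T cells, and 2 fell in both. Among the 144 genes with a higher difference, 81 fell in CD4 T cells with no call in CD8 T cells, 32 fell in both lineages, 18 rose in CD8 T cells with no call in CD4 T cells, 10 fell in CD4 and rose in CD8 T cells, and 3 rose in both. Within each lineage, 16.5% of the genes tested rose and 13.7% fell in CD4 T cells, and 10.3% rose and 7.89% fell in CD8 T cells. The median difference over all genes tested was -0.02, and the median absolute difference of called genes was 0.90. The difference reached at least 1 on the log2 scale in 139 called genes, 85 lower and 54 higher. The differences computed within replicate 1 and within replicate 2 had the same sign in all 403 called genes, and in 68.9% of all genes tested. A call needs close agreement of the replicates, so this follows from the calls and is given as a description.

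**Figure D1:**
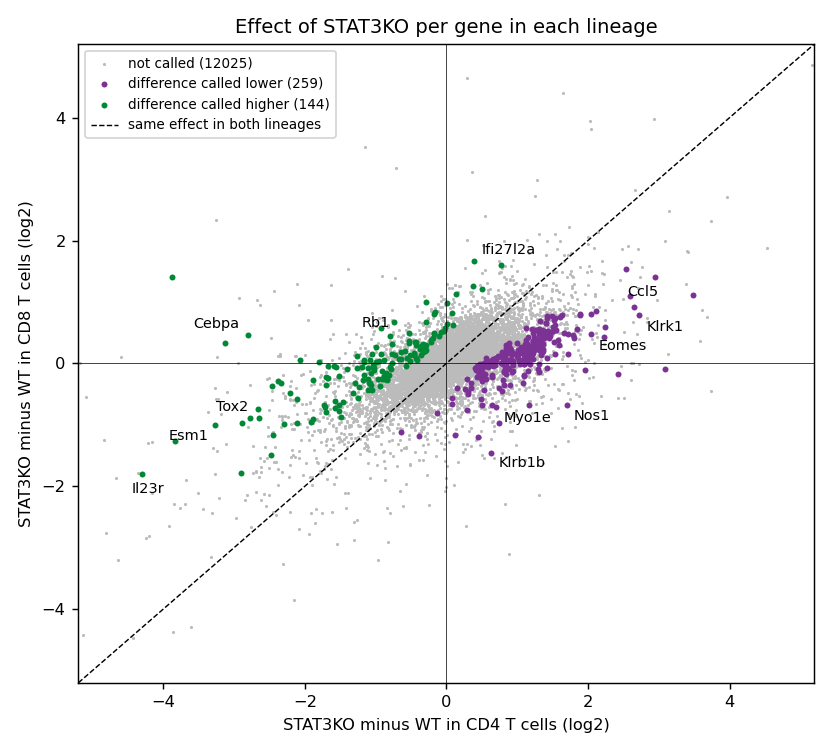
Each point is a gene, placed by its STAT3KO minus WT change on the log2 scale in CD4 T cells (horizontal axis) and in CD8 T cells (vertical axis), and 15 genes lie outside the drawn range. The 259 genes with a lower difference (purple) lie below the dashed line of equal effects, mostly where the CD4 change is positive, and the 144 genes with a higher difference (green) lie above it, mostly where the CD4 change is negative.

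The number of calls depended on the block and on single libraries. Without the replicate block, edgeR called 0 genes, with 982 at an unadjusted p under 0.05 against 2062 with the block. With the block, leaving out STAT3KO CD4 replicate 2 left 3 called genes, WT CD8 replicate 1 left 53, STAT3KO CD4 replicate 1 left 103 and WT CD8 replicate 2 left 163, while leaving out WT CD4 replicate 1 gave 633. Without STAT3KO CD8 replicate 2, the library with acinar transcripts, there were 534 calls. The sign of the difference was the same in all 403 genes in each of these fits. These fits reuse the libraries that chose the genes, so the shared sign is no separate support. Among the genes named below, each one with a called difference lost that call without the block.

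The called genes were also placed by their level in the WT libraries. The mean CPM was higher in WT CD8 than in WT CD4 T cells in 247 of the 259 genes with a lower difference, and lower in WT CD8 T cells in 135 of the 144 genes with a higher difference. Of all genes tested, 50.1% were higher in WT CD8 T cells. The CD8 over CD4 ratio was closer to equal in STAT3KO than in WT libraries in 361 of the 403 genes, and in 62.4% of all genes tested. The WT libraries enter both sides of these statements, so they are given as a description.

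Among the 12 genes with the lowest differences, 10 rose with STAT3 loss in CD4 T cells, by between 1.42 and 2.95 on the log2 scale, from a WT level below that of CD8 T cells. Klrk1 encodes NKG2D, an activating receptor of NK and CD8 T cells. Its level was 11.7 and 12.2 CPM in WT CD4, 78.3 and 79.2 CPM in STAT3KO CD4, 244 and 199 CPM in WT CD8, and 432 and 335 CPM in STAT3KO CD8 libraries. No groups overlapped, and the gene rose in both lineages, by 2.72 (SE 0.12) in CD4 and 0.79 (SE 0.10) in CD8 T cells on the log2 scale, a difference of -1.93 (SE 0.16, edgeR adjusted p 0.000945). Ccl5 encodes a chemokine (RANTES) that effector and memory T cells secrete. It had 25.9 and 21.5 CPM in CD4 libraries of WT and 151 and 147 CPM in those of STAT3KO donors, against 194 and 207 CPM and 376 and 385 CPM in the CD8 libraries, and the difference was -1.73 (SE 0.13, edgeR adjusted p 0.000859), the smallest adjusted p of all genes. Heatr9, its neighbor on chromosome 11, had 1.40 and 0.425 CPM in WT CD4 and 8.70 and 5.35 CPM in STAT3KO CD4 libraries, against 8.90 and 6.86 CPM in WT CD8 and 22.3 and 19.1 CPM in STAT3KO CD8 libraries (difference -1.55, SE 0.36, edgeR adjusted p 0.0484). Eomes, a T-box factor of killer and memory CD8 T cells, had 3.74 and 2.27 CPM in WT CD4, 13.5 and 11.01 CPM in STAT3KO CD4, 45.6 and 37.9 CPM in WT CD8, and 70.2 and 47.6 CPM in STAT3KO CD8 libraries. Its change was 2.04 (SE 0.16) in CD4 and 0.48 (SE 0.11) in CD8 T cells, and the difference was -1.57 (SE 0.19, edgeR adjusted p 0.00434).

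Nedd4, a ubiquitin ligase, had 4.39 and 4.77 CPM in WT CD4, 18.6 and 24.6 CPM in STAT3KO CD4, 51.3 and 47.1 CPM in WT CD8, and 57.1 and 77.6 CPM in STAT3KO CD8 libraries (difference -1.80, SE 0.22). Pls1, an actin-bundling plastin, Tanc2, a scaffold protein, and Faxc followed the same order of groups in their means, except that STAT3KO CD4 T cells lay above WT CD8 T cells for Tanc2. Their CD4 changes were 2.24, 2.60 and 1.72 on the log2 scale and their differences -1.66, -1.51 and -1.56. Igfbp7 rose in CD4 T cells alone, from 7.53 and 5.34 CPM to 15.01 and 19.5 CPM, with 9.64 and 9.22 CPM in WT CD8 and 7.43 and 10.6 CPM in STAT3KO CD8 libraries (difference -1.48, SE 0.30). It shares exon bases with Polr2b on the other strand.

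Klrb1b and Fcer1g, the other two of the 12 genes, fell in CD8 T cells with no call in CD4 T cells, and Nos1 lay lower in STAT3KO than in WT CD8 libraries. Nos1, the neuronal nitric oxide synthase, rose in CD4 T cells from 4.14 and 1.796 CPM to 11.8 and 7.40 CPM, and had 23.6 and 17.2 CPM in WT CD8 and 10.5 and 14.2 CPM in STAT3KO CD8 libraries, where its change of -0.68 was not called (edgeR adjusted p 0.0907). Its difference of -2.38 (SE 0.40, edgeR adjusted p 0.0136) was the lowest under the naming rule. Klrb1b, a lectin-like receptor of NK cells, fell in CD8 T cells from 34.8 and 39.2 CPM to 10.2 and 17.4 CPM, and lay between 2.05 and 3.98 CPM in the CD4 libraries (difference -2.08, SE 0.27). Fcer1g, the signaling chain shared by several activating receptors, fell in CD8 T cells from 13.6 and 21.2 CPM to 5.26 and 10.3 CPM, and had 2.25 and 5.58 CPM in WT CD4 and 3.10 and 7.59 CPM in STAT3KO CD4 libraries (difference -1.65, SE 0.27). Fcer1g is also a gene of macrophages, whose markers summed to 46.1 and 203 CPM in WT CD8 and 64.3 and 173 CPM in STAT3KO CD8 libraries. The part of macrophages in its difference was not tested.

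All 11 genes named for their high differences fell with STAT3 loss in CD4 T cells. Cebpa encodes C/EBPα, a transcription factor best known from myeloid cells. Its level was 56.3 and 35.3 CPM in WT CD4, 5.10 and 7.95 CPM in STAT3KO CD4, and between 0.994 and 2.07 CPM in the 4 CD8 libraries. Only the WT CD4 libraries stood high, and the difference was 3.26 (SE 0.54, edgeR adjusted p 0.0130). Esm1, a secreted proteoglycan, fell in CD4 T cells from 24.5 and 42.9 CPM to 3.20 and 3.70 CPM, and in CD8 T cells from 30.9 and 39.2 CPM to 19.0 and 15.3 CPM (difference 2.25, SE 0.32). H2-Ob, a chain of the class II peptide-loading modulator H2-O, fell in CD4 T cells from 17.5 and 25.0 CPM to 4.90 and 5.12 CPM and stayed between 2.64 and 4.38 CPM in CD8 libraries (difference 2.13, SE 0.26). Tox2, a nuclear factor of follicular helper T cells, had 284 and 228 CPM in WT CD4, 42.9 and 38.9 CPM in STAT3KO CD4, 47.5 and 46.6 CPM in WT CD8, and 21.4 and 29.4 CPM in STAT3KO CD8 libraries. It fell by 2.65 in CD4 and by 0.89 in CD8 T cells on the log2 scale (difference 1.76, SE 0.21, edgeR adjusted p 0.0043).

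The remaining genes at this end were highest in the WT CD4 libraries. Matk, a kinase that inhibits Src family kinases, fell in CD4 T cells from 76.3 and 84.7 CPM to 9.35 and 12.7 CPM, and in CD8 T cells from 5.53 and 8.93 CPM to 3.47 and 3.83 CPM (difference 1.91, SE 0.22). Stom, which encodes the membrane protein stomatin, fell from 48.3 and 39.9 CPM to 5.802 and 7.13 CPM in CD4 T cells, and from 14.8 and 16.3 CPM to 7.57 and 9.20 CPM in CD8 T cells (difference 1.88, SE 0.22). Bambi-ps1, Rab31, Tspan5, Trerf1 and Otud3 fell by between 1.55 and 2.21 in CD4 T cells, and their differences lay between 1.49 and 1.74. None of these 5 was called in CD8 T cells. Bambi-ps1 is annotated as a processed pseudogene, so reads of its parent gene may be counted there.

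**Figure D2:**
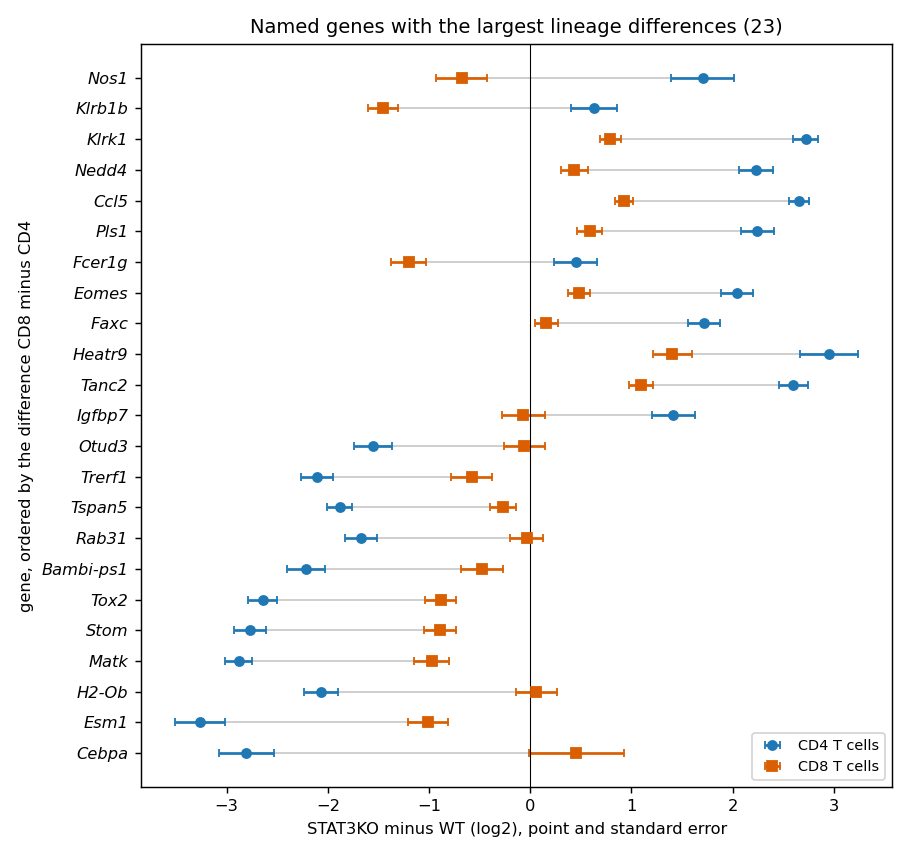
For the 23 genes named for their low or high differences, points give the STAT3KO minus WT change on the log2 scale with its standard error in CD4 (circles) and CD8 T cells (squares). The circles lie farther from 0 than the squares in every gene but Klrb1b and Fcer1g, whose CD8 change was the larger.

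Among the gene lists, those of cell division held the most called genes. Mitosis genes encode the kinases, motors and kinetochore proteins that divide the chromosomes, and all 40 of the list were tested. The difference was called lower in 30 of them (75%), against 2.08% of all genes, and higher in 0. All 40 rose with STAT3 loss in CD4 T cells (median 1.22 on the log2 scale), and 17 rose and 0 fell in CD8 T cells (median 0.32). Of all genes tested, 16.5% rose in CD4 T cells, and 10.3% rose and 7.89% fell in CD8 T cells. The median difference was -0.93, at -0.95 within replicate 1 and -0.90 within replicate 2. Summed over the list, the CD4 libraries went from 2685 and 2092 CPM (by library total) in WT to 5371 and 5131 CPM in STAT3KO, and the CD8 libraries from 7899 and 6343 CPM to 8970 and 8841 CPM. STAT3KO CD4 T cells thus lay between WT CD4 and WT CD8 T cells, and no groups overlapped.

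Cdca8, a subunit of the chromosomal passenger complex, had 33.3 and 21.6 CPM in WT CD4, 62.3 and 56.8 CPM in STAT3KO CD4, 109 and 88.5 CPM in WT CD8, and 103 and 97.1 CPM in STAT3KO CD8 libraries. It rose in CD4 T cells by 1.14 (SE 0.12) with a change of 0.03 (SE 0.11) in CD8 T cells, a difference of -1.11 (SE 0.17, edgeR adjusted p 0.00932). Cdc25c, the phosphatase that activates CDK1 at the entry into mitosis, had the lowest difference of the list (-1.14, SE 0.22), with 11.1 and 7.18 CPM in WT CD4 and 21.01 and 21.3 CPM in STAT3KO CD4 libraries. Its CD8 libraries lay between 36.3 and 41.0 CPM and the CD8 groups overlapped. Spc24, a kinetochore subunit, had a difference of -1.13 (SE 0.17). Mki67, the source of the proliferation antigen Ki-67, rose in both lineages, from 739 and 503 to 1454 and 1223 CPM in CD4 and from 2036 and 1526 to 2416 and 2033 CPM in CD8 T cells, with a difference of -0.80 (SE 0.13). The 10 members without a call included Plk1, Top2a, Ccnb1 and Ndc80, whose differences ran from -0.94 to -0.43.

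DNA replication genes, which copy the genome before mitosis, went the same way with smaller values. The difference was called lower in 15 of 35 (42.9%) and higher in 0, all 35 were negative, and the median was -0.60. In CD4 T cells 34 rose (median 0.85, against 16.5% of all genes). In CD8 T cells 6 rose and 0 fell (median 0.16), against 10.3% and 7.89% of all genes. Cdc45, a part of the replicative helicase, had 18.3 and 15.4 CPM in WT CD4, 40.9 and 38.4 CPM in STAT3KO CD4, 66.0 and 49.9 CPM in WT CD8, and 73.1 and 67.1 CPM in STAT3KO CD8 libraries (difference -0.96, SE 0.15, edgeR adjusted p 0.00932). It shares exon bases with Ufd1 on the other strand. Lig1, the ligase that joins Okazaki fragments, had a difference of -1.07 (SE 0.18), and Tk1, a thymidine kinase, of -0.97 (SE 0.16). Pcna, the sliding clamp of the polymerases, was not called (-0.14, SE 0.16) and rose in each lineage.

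Calls in the division lists rested on the same libraries as the total. Without the replicate block 0 mitosis and 0 replication genes were called. Leaving out STAT3KO CD4 replicate 2 also left 0 and 0, WT CD8 replicate 1 left 3 and 0, STAT3KO CD4 replicate 1 left 10 and 4, and WT CD8 replicate 2 left 19 and 7, while the median differences stayed between -1.08 and -0.75 for mitosis and between -0.72 and -0.51 for replication in all fits that left out a library. On log2(RPKM + 1) values, 18 mitosis and 6 replication genes were called.

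**Figure D3:**
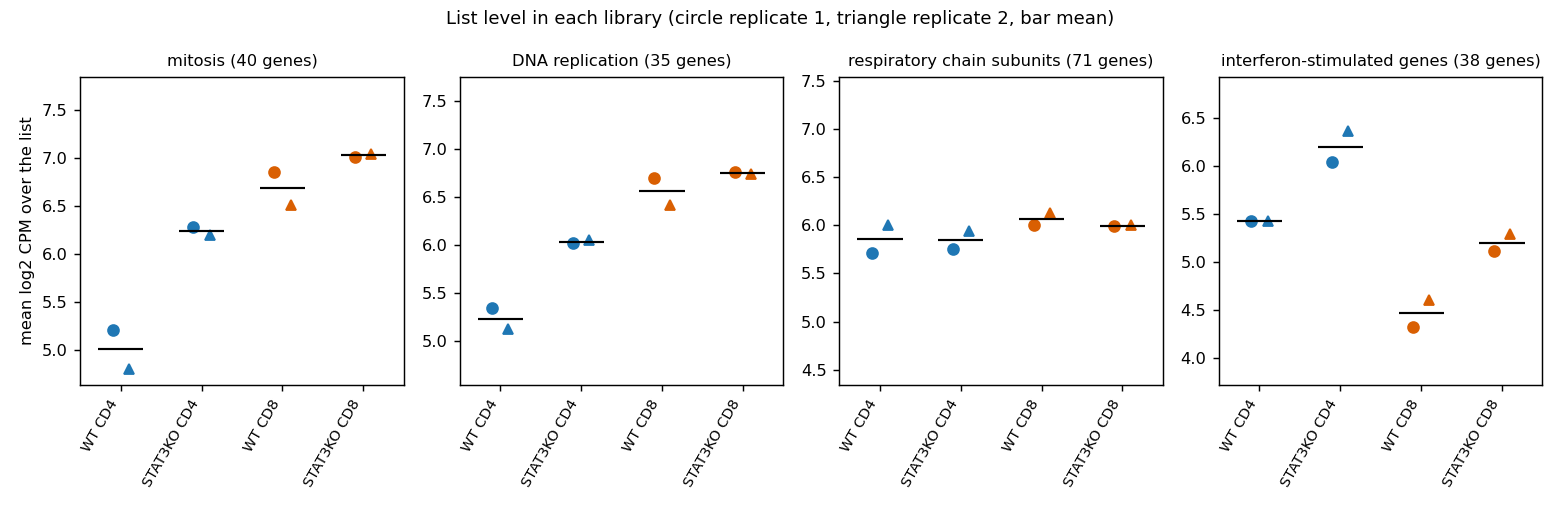
Mean log2 CPM over the tested genes of 4 lists in each library, with the group mean as a bar. Mitosis and DNA replication genes were lowest in WT CD4, intermediate in STAT3KO CD4 and highest in CD8 libraries, while interferon-stimulated genes were higher in STAT3KO libraries of each lineage and respiratory chain genes varied less.

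Promoters of the division genes were read because many late cell cycle promoters hold a short element named CHR. RefSeq promoter windows on GRCm38 (250 bases before to 50 after the start) matched 9838 of the 12428 tested genes. A matched gene counted where any of its windows held the letters. The CHR letters TTTGAA, on either strand, stood in 18 of the 22 matched mitosis genes with a lower difference (81.8%). They stood in 27.0% of matched genes with a lower difference, 9.17% with a higher difference and 14.4% of all matched. Among genes with 1 start, these shares were 29.8%, 8.7% and 12.2%. The genes with a lower difference include the mitosis genes. Outside the mitosis and DNA replication lists, 21.3% of the matched genes with a lower difference held the CHR letters. E2F letters (TTTGGCGC or TTTCGCGC, on either strand) stood in 4 of the 13 matched replication genes with a lower difference (30.8%). They stood in 1 of the 22 mitosis genes (4.55%) and in 1.88% of all matched genes. The CHR letters stood in 1 of the 13 replication genes (7.69%). The STAT letters TTCNNNGAA, which read the same on both strands in their fixed positions, stood in 9.8% of matched genes with a lower difference. They stood in 7.5% of those with a higher difference and in 8.39% of all. By list, they stood in 3 of the 13 replication genes (23.1%) and in 0 of the 22 mitosis genes. A match describes the letters and not a binding site. The CHR letters can lie inside the STAT letters, and the E2F letters cannot. The windows of Cdca8, of Aurka, the kinase of the mitotic spindle poles, and of Kif18b, a kinesin of the spindle, are shown 5′ to 3′ on the minus strand as examples of mitosis genes with a lower difference, with the CHR letters in capitals.
Cdca8 (chr4:124936868-124937167): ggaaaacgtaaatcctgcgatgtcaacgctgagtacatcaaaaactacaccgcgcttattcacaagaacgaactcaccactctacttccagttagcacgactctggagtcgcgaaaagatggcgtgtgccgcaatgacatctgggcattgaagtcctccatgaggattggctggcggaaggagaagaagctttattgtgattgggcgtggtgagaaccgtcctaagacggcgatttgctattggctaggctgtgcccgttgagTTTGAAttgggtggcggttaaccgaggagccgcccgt
Aurka (chr2:172370521-172370820): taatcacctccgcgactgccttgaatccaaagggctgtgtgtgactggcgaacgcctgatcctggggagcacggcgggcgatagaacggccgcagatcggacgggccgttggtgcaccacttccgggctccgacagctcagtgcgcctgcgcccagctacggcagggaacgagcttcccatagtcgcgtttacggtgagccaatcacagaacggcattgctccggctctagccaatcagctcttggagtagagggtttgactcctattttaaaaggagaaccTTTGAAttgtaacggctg
Kif18b (chr11:102925075-102925374): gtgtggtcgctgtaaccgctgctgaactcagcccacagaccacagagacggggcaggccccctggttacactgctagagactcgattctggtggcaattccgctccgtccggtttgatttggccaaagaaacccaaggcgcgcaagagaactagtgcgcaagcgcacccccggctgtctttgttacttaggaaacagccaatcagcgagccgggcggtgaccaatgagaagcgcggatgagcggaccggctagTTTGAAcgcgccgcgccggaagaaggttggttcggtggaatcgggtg
In these windows, counted from 1 at the 5′ end, the capitals start at base 264 for Cdca8, 283 for Aurka and 254 for Kif18b, close to the annotated start of each gene. Aurka had 15.8 and 12.2 CPM in WT CD4, 30.0 and 31.2 CPM in STAT3KO CD4, 51.4 and 43.0 CPM in WT CD8, and 47.4 and 49.6 CPM in STAT3KO CD8 libraries (difference -1.09, SE 0.17). Kif18b had 23.3 and 14.04 CPM in WT CD4, 47.6 and 38.0 CPM in STAT3KO CD4, 77.9 and 57.2 CPM in WT CD8, and 79.4 and 72.9 CPM in STAT3KO CD8 libraries (difference -1.02, SE 0.18).

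Regulators of the cell cycle were called in both directions. Of 22 cyclins, CDK inhibitors and E2F and RB family genes, the difference was called higher in 2 (9.09%, against 1.16% of all genes) and lower in 1 (4.55%, against 2.08%), and 16 of the 22 were negative, with a median of -0.19. In CD4 T cells 11 rose and 3 fell, against 16.5% and 13.7% of all genes. In CD8 T cells 7 rose and 2 fell, against 10.3% and 7.89%. Rb1, the retinoblastoma protein that restrains E2F factors, fell in CD4 T cells from 137 and 125 CPM to 87.2 and 65.2 CPM and rose in CD8 T cells from 75.1 and 52.3 CPM to 90.3 and 80.6 CPM. Its difference was 1.23 (SE 0.15, edgeR adjusted p 0.0043), and it shares exon bases with Lpar6 and Rcbtb2. Cdkn1b, which encodes the CDK inhibitor p27, rose in CD8 T cells from 129 and 116 CPM to 156 and 157 CPM, with 212 and 198 CPM in WT CD4 and 188 and 166 CPM in STAT3KO CD4 libraries (difference 0.57, SE 0.11). E2f1, an activator of replication genes, went from 10.98 and 7.94 CPM to 18.0 and 18.1 CPM in CD4 T cells and lay between 24.3 and 29.0 CPM in CD8 libraries (difference -1.07, SE 0.18).

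Killer cell genes were called in 1 direction. Of 7 granzyme and perforin genes tested, the difference was called lower in 3 (42.9%) and higher in 0 (median -0.74), of 17 genes of killing and effector cytokines lower in 3 (17.6%) and higher in 0 (median -0.52), and of 14 NK receptors lower in 3 (21.4%) and higher in 0 (median -0.98). The NK receptor median moved with the setting. It was -0.51 for the 8 receptors whose mean log2 CPM was no lower than 3, and -0.445 on log2(RPKM + 1). Within replicate 1 it was -0.47 and within replicate 2 -0.85. In the fits that left out a library it ran from -1.12 (STAT3KO CD4 replicate 1 left out) to -0.47 (WT CD8 replicate 1 left out). Of all genes tested, 2.08% were called lower. The changes behind these calls differed between members. Gzmb, the granzyme that activates caspases in target cells, had 533 and 469 CPM in WT CD4, 331 and 308 CPM in STAT3KO CD4, 3384 and 2914 CPM in WT CD8, and 1557 and 1355 CPM in STAT3KO CD8 libraries. It fell in both lineages, by 0.65 in CD4 and by 1.11 in CD8 T cells (difference -0.47, SE 0.11, edgeR adjusted p 0.0495). Prf1, the pore-forming protein perforin, fell in CD8 T cells from 446 and 328 CPM to 242 and 246 CPM and had 50.99 and 45.4 CPM in WT CD4 and 48.8 and 52.7 CPM in STAT3KO CD4 libraries (difference -0.74, SE 0.17, edgeR adjusted p 0.0471).

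Gzmk, a granzyme of memory-type CD8 T cells, rose in both lineages instead. Its level was 18.8 and 19.0 CPM in WT CD4, 67.5 and 72.7 CPM in STAT3KO CD4, 156 and 132 CPM in WT CD8, and 296 and 206 CPM in STAT3KO CD8 libraries (difference -1.10, SE 0.19). Nkg7, a granule membrane protein, rose in CD4 T cells alone, from 245 and 235 CPM to 389 and 454 CPM, with 641 and 658 CPM in WT CD8 and 553 and 630 CPM in STAT3KO CD8 libraries (difference -0.95, SE 0.13). Ctsw, a protease of cytotoxic granules, rose in CD4 T cells from 127 and 117 CPM to 152 and 158 CPM and fell in CD8 T cells from 361 and 392 CPM to 288 and 279 CPM (difference -0.75, SE 0.12). It shares exon bases with Fibp. Klrg1, a receptor of terminally differentiated effector cells, rose from 4.44 and 2.74 CPM to 23.6 and 17.6 CPM in CD4 and from 15.2 and 10.2 CPM to 49.96 and 25.5 CPM in CD8 T cells (difference -1.01, SE 0.22, edgeR adjusted p 0.0365). The calls of Gzmb, Prf1 and Klrg1 were lost in 12, 10 and 11 of the 18 alternatives. Calls of named genes outside these lists were lost as often, among them Heatr9, Rrm2 and Il15ra (11 each) and Itga4 and Plk4 (10 each). Of the 8 NK cell markers 6 were tested, and Eomes and Fcer1g were called lower. Klrb1c lay between 13.9 and 26.2 CPM by library total and Tyrobp between 0.43 and 4.35 CPM, while Ncr1 reached 0.246 CPM and Klra8 was at 0. The part of NK cells in these differences was not tested.

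Transcription factors of helper, killer and memory T cells were called lower in 3 of 30 (10%, against 2.08% of all genes) and higher in 0. Of the 30 differences 16 were positive and 14 negative, with a median of 0.07. Eomes had the lowest of the 3. Prdm1, which encodes Blimp-1, a repressor in effector and plasma cells, rose in CD4 T cells from 81.6 and 55.7 CPM to 140 and 122 CPM and lay between 148 and 174 CPM in the CD8 libraries (difference -0.91, SE 0.20). Ikzf3, which encodes the lymphoid factor Aiolos, rose from 456 and 374 CPM to 782 and 723 CPM in CD4 and from 672 and 573 CPM to 779 and 734 CPM in CD8 T cells (difference -0.58, SE 0.12). In the list of naive and memory genes 0 of 15 were called, against 3.24% of all genes. The smallest p was that of Tcf7, the factor TCF1 of naive and stem-like T cells. Tcf7 fell from 1452 and 1345 CPM to 420 and 389 CPM in CD4 and from 285 and 386 CPM to 141 and 168 CPM in CD8 T cells (difference 0.67, SE 0.18, edgeR adjusted p 0.0813). By DESeq2, without the filter on low counts and without WT CD4 replicate 2, the difference of Tcf7 was called.

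**Figure D4:**
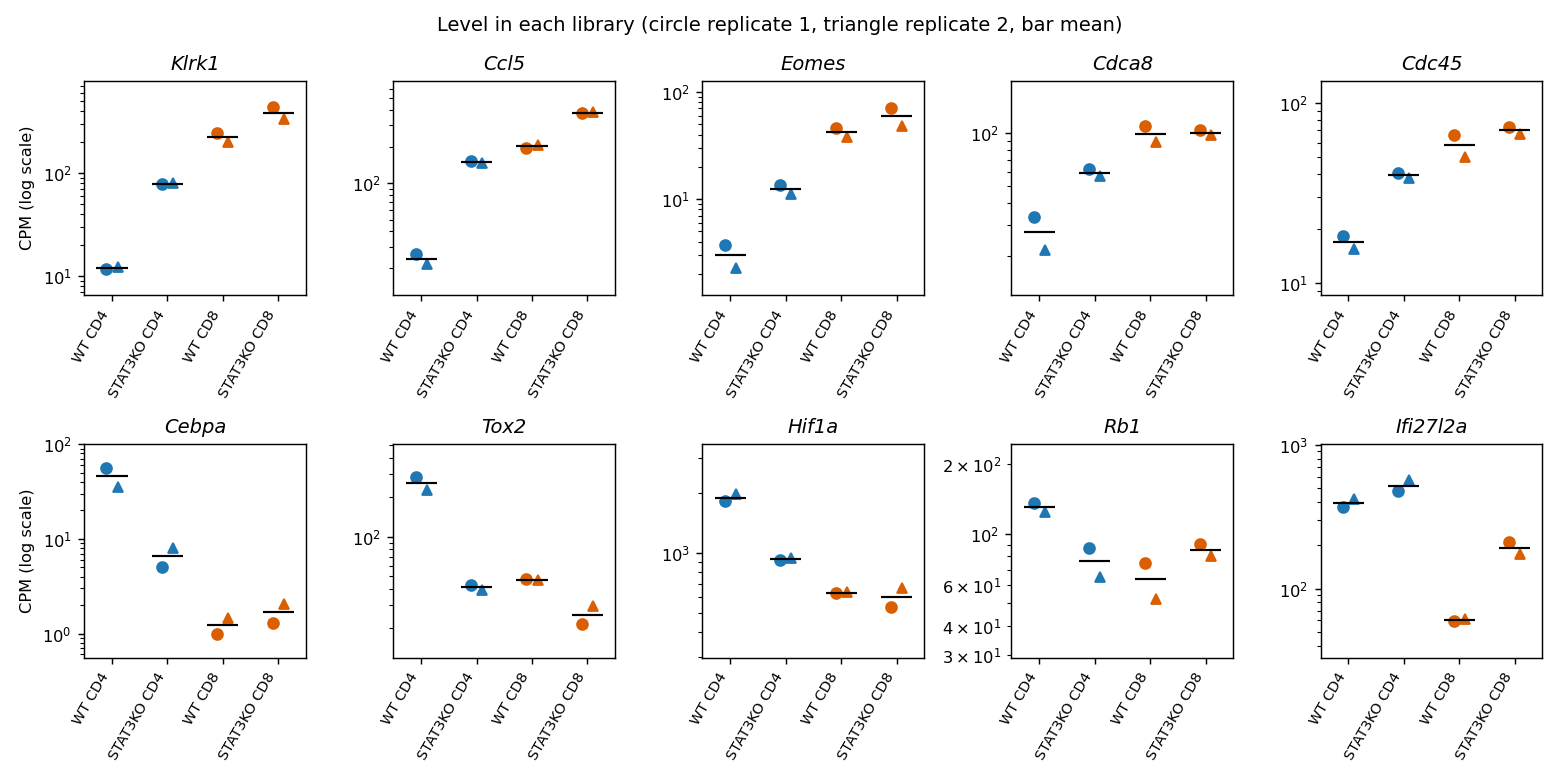
CPM on a log axis in each library for 10 named genes, CD4 groups in blue and CD8 groups in orange, with the mean of each group as a bar. In Klrk1, Ccl5 and Eomes the step from WT to STAT3KO is larger in CD4 T cells. In Cebpa, Tox2 and Hif1a a high WT CD4 level falls, and in Hif1a the STAT3KO CD4 level stays above the CD8 groups. In Rb1 the steps point in opposite directions, and in Ifi27l2a the larger step is in CD8 T cells.

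Genes of STAT3-dependent programs were called in both directions. Of 30 STAT3-linked genes, the difference was called higher in 2 (6.67%, against 1.16% of all genes) and lower in 3 (10%, against 2.08%), with a median of 0.20. Hif1a, the hypoxia-inducible factor that favors glycolysis and Th17 cells, fell in CD4 T cells from 1822 and 1978 CPM to 921 and 949 CPM, and had 631 and 633 CPM in WT CD8 and 533 and 665 CPM in STAT3KO CD8 libraries (difference 0.94, SE 0.13, edgeR adjusted p 0.00596). Il23r, the receptor chain for IL-23, fell in CD4 T cells from 5.84 and 8.27 CPM to 0.350 and 0.366 CPM, and in CD8 T cells from 6.44 and 9.14 CPM to 1.30 and 3.29 CPM (difference 2.50, SE 0.44). WT levels of Il23r overlapped between the lineages, and all its values were low. Tnfrsf8, which encodes CD30, rose in CD4 T cells from 5.09 and 4.30 CPM to 10.8 and 12.5 CPM and lay between 8.83 and 11.5 CPM in the CD8 libraries (difference -1.32, SE 0.23). Osm, a cytokine of the IL-6 family, fell in both lineages and more in CD8 T cells (difference -0.81). Socs3, the feedback inhibitor and textbook target of STAT3, was not called (0.25).

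Follicular helper genes were called higher in 2 of 19 (10.5%, against 1.16% of all genes) and lower in 0, and 17 of the 19 differences were positive, with a median of 0.41. These were Tox2 and Cxcr5, the receptor that guides cells into B cell follicles. Cxcr5 had 253 and 247 CPM in WT CD4, 64.0 and 89.5 CPM in STAT3KO CD4, 15.7 and 20.6 CPM in WT CD8, and 8.83 and 14.03 CPM in STAT3KO CD8 libraries. It fell in both lineages (difference 1.06, SE 0.21, edgeR adjusted p 0.0221) and shares exon bases with Bcl9l. Bcl6, the repressor that defines the follicular helper state, had a difference of 0.37 and Il21, their cytokine, of -0.36, and neither was called.

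Among 23 chemokine receptor and homing genes, the difference was called higher in Cxcr5 alone (4.35%, against 1.16% of all genes) and lower in 2 (8.7%, against 2.08%). Itga4, the α4 integrin chain that pairs into VLA-4 and α4β7, rose in both lineages, from 1291 and 1124 CPM to 2634 and 2622 CPM in CD4 and from 2500.4 and 2486 CPM to 3605 and 3856 CPM in CD8 T cells (difference -0.54, SE 0.13, edgeR adjusted p 0.0495). Itga1, a collagen-binding integrin of tissue-resident cells, fell in CD8 T cells from 111 and 83.2 CPM to 78.9 and 58.7 CPM and lay between 20.5 and 36.5 CPM in the CD4 libraries (difference -0.81, SE 0.16).

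Of 13 checkpoint receptors, 2 were called lower (15.4%, against 2.08% of all genes) and 1 higher (7.69%, against 1.16%). Havcr2, which encodes TIM-3, rose in CD4 T cells from 84.0 and 58.9 CPM to 134 and 112 CPM, and had 342 and 294 CPM in WT CD8 and 284 and 246 CPM in STAT3KO CD8 libraries, a CD8 change that was not called (difference -1.06, SE 0.13, edgeR adjusted p 0.0043). Cd96, an inhibitory receptor for CD155, rose in CD4 T cells from 181 and 194 CPM to 291 and 321 CPM (difference -0.65, SE 0.13). Nt5e, the ectoenzyme CD73, fell in CD4 T cells from 105 and 145 CPM to 75.1 and 121 CPM, where the replicates differed more than the genotypes and the groups overlapped, and its difference was 0.61 (SE 0.13). Pdcd1, which encodes PD-1, was not called (-0.09).

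Of 27 cytokine receptors, 3 were called lower (11.1%, against 2.08% of all genes) and 1 higher (3.7%, against 1.16%), with a median of 0.03. Il10ra, the IL-10 receptor chain, rose in both lineages, from 97.4 and 78.4 CPM to 285 and 256 CPM in CD4 and from 138 and 121 CPM to 245 and 205 CPM in CD8 T cells (difference -0.83, SE 0.11). The receptor chains for IL-15 and IL-2 were called lower too. Il15ra rose in CD4 T cells from 14.7 and 14.6 CPM to 22.0 and 20.8 CPM and lay between 17.6 and 21.4 CPM in the CD8 libraries (difference -0.72, SE 0.16), and the difference of Il2rb, the chain that both cytokines share, was -0.70 (SE 0.13). Ifnar2, a chain of the type I interferon receptor, fell in CD4 T cells from 64.0 and 81.6 CPM to 39.8 and 38.6 CPM and lay between 31.9 and 41.2 CPM in the CD8 libraries (difference 0.94, SE 0.18).

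Most interferon-stimulated genes rose in each lineage, 33 of 38 in CD4 and 26 of 38 in CD8 T cells, against 16.5% and 10.3% of all genes. The difference was called lower in 2 (5.26%, against 2.08% of all genes) and higher in 1 (2.63%, against 1.16%), and its median was -0.04, while the STAT3KO effect itself had a median of 0.67 in CD4 T cells and of 0.62 in CD8 T cells. Ifi27l2a, a small mitochondrial protein induced by interferon, had 369 and 421 CPM in WT CD4, 473 and 564 CPM in STAT3KO CD4, 59.3 and 61.7 CPM in WT CD8, and 210 and 174 CPM in STAT3KO CD8 libraries. It rose in both lineages and more in CD8 T cells (difference 1.28, SE 0.17, edgeR adjusted p 0.00475). Gbp7 and Gbp3, guanylate-binding proteins of cell-autonomous defense, rose in both lineages and more in CD4 T cells, with differences of -0.65 (SE 0.12) and -0.63 (SE 0.12).

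Metabolic lists of 42, 34, 32 and 71 tested genes held 4 called genes in all, where 3.24% of all genes tested were called. Of 42 glutathione genes, 2 were called lower (4.76%, against 2.08% of all genes), and both were subunits of ribonucleotide reductase, which the list shares with DNA replication. Rrm1 went from 167 and 167 CPM to 307 and 324 CPM in CD4 T cells and from 495 and 431 CPM to 507 and 540 CPM in CD8 T cells (difference -0.74, SE 0.13), and Rrm2 had a difference of -0.74 (SE 0.17, edgeR adjusted p 0.0498). The list median was -0.06. Of 34 glycolysis genes, Aldoc, the aldolase C isozyme, was the only call (2.94% called higher, against 1.16% of all genes), with a difference of 1.54 (SE 0.34). WT CD4 T cells held 7.38 and 7.14 CPM of it, and the other 6 libraries between 1.44 and 2.65 CPM. The median of the list was 0.02. In the fatty acid list the only call of 32 (3.12% called higher) was Acsl3, an acyl-CoA synthetase (3.46, SE 0.76), which shares exon bases with Utp14b on the same strand, lay between 0.086 and 5.29 CPM, and had under 3 counts in WT CD8 replicate 1. The median was -0.06. Respiratory chain subunits gave 0 calls of 71 by edgeR, against 3.24% of all genes, and a median of -0.06. Cox6a1 came closest (-0.28, SE 0.12, edgeR adjusted p 0.266).

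Myc targets (version 2 of the list) were called lower in 2 of 56 (3.57%, against 2.08% of all genes) and higher in 1 (1.79%, against 1.16%), shares near those of all genes, with a median of 0.02. Mcm5, a helicase subunit that also belongs to DNA replication, rose in CD4 T cells from 128 and 98.2 CPM to 235 and 213 CPM and lay between 310 and 408 CPM in the CD8 libraries (difference -0.88, SE 0.13). Plk4, the kinase of centriole duplication, rose in both lineages (difference -0.55, SE 0.12). Npm1, the nucleolar chaperone nucleophosmin, rose in CD8 T cells from 261 and 297 CPM to 341 and 420.0 CPM, with 276 and 328 CPM in WT CD4 and 253 and 307 CPM in STAT3KO CD4 libraries (difference 0.56, SE 0.11).

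**Figure D5:**
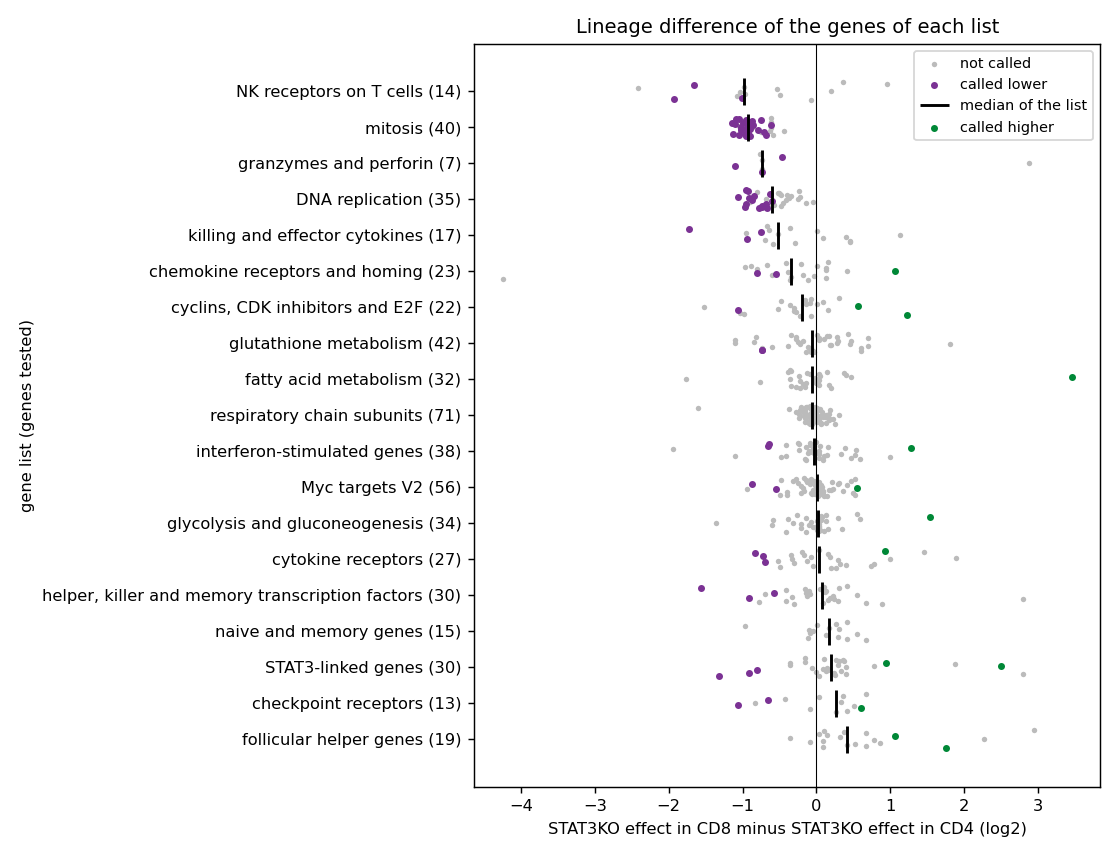
Each point is the difference CD8 minus CD4 of a gene on the log2 scale, by list and with the number of genes tested, and the bar is the median of the list. All 40 mitosis and all 35 DNA replication points lie to the left of 0, with 30 and 15 of them called, and the metabolic lists center near 0.

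Of the 403 genes, 5 rose in CD4 and fell in CD8 T cells and 10 fell in CD4 and rose in CD8 T cells. Trp53inp1, a p53-induced protein that slows proliferation, fell in CD4 T cells from 753 and 819 CPM to 631 and 651 CPM and rose in CD8 T cells from 257 and 285 CPM to 394 and 470 CPM (difference 0.96, SE 0.11, edgeR adjusted p 0.0043). Actn1, an actin crosslinker, fell in CD4 T cells from 202 and 191 CPM to 148 and 140 CPM and rose in CD8 T cells from 153 and 153 CPM to 189 and 200 CPM (difference 0.79, SE 0.11). Gpcpd1, Otud1 and Dcun1d4 went the same way as these, with differences of 0.87, 1.03 and 0.89. In the other direction, Myo1e, an unconventional myosin, rose in CD4 T cells from 17.1 and 9.92 CPM to 20.2 and 23.1 CPM and fell in CD8 T cells from 49.5 and 38.4 CPM to 22.5 and 30.6 CPM (difference -1.41, SE 0.32, edgeR adjusted p 0.0437). Ajuba, a scaffold of the Hippo pathway, rose from 28.3 and 21.4 CPM to 40.0 and 29.7 CPM in CD4 T cells and fell from 14.6 and 12.97 CPM to 8.44 and 9.88 CPM in CD8 T cells (difference -1.06, SE 0.22).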

How the data were processed

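Messenger RNA of sorted spleen T cells was measured in 8 libraries, 2 for each genotype and lineage, grouped by the title, cell type and genotype labels. The authors made stranded single-end libraries with reads of 51 bases, used STAR on mm10 and HTSeq with RefSeq genes, and deposited raw counts per gene and a second table of RPKM values (counts divided by exon length and sequencing depth). Whether the counting used strand is not stated in the sources used here. The growth and treatment fields of the labels describe another cell system and were not used. Totals per library ranged from 20171396 to 23282757 counts, so that an undetected gene could have up to 3 counts, or 0.129 to 0.149 CPM. Such limits cover counting error only. In the deposited tables, 26 gene names had become dates and were kept.

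The function filterByExpr (groups, minimum count of 10) chose the genes. Counts were TMM-scaled and fitted in edgeR 4.0.16 (R 4.3.3) with a mean per group and the replicate number as a block, which left 3 residual degrees of freedom. The interaction and the STAT3KO effect of each lineage were tested by quasi-likelihood F tests, two-sided, with Benjamini-Hochberg adjustment over all 12428 genes. SE were derived from the F statistic. Per-library CPM are TMM-scaled, except list sums and marker genes, which use library totals. The labels do not say whether same-numbered CD4 and CD8 libraries came from the same pool of recipients. Deviations from group means correlated between same-numbered libraries across genes, with r from 0.424 to 0.671 in all 6 pairs of groups, above the tolerance of 0.1. Pairs of WT with STAT3KO groups were among them. The correlation thus describes a shift shared by replicate number and cannot show which libraries shared a pool. The fit was also run on counts simulated from its own model, with an additive replicate effect. Such a run cannot show whether the block suits these data.

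The comparison, gene lists and naming rule were chosen with earlier results of these data known. Named were Stat3 and the coreceptor genes, the 12 called genes with the lowest and the 12 with the highest difference among those at or above 3 in mean log2 CPM and with the same sign within each replicate, up to 3 called members of each of 19 lists (or the smallest p where none was called), and up to 8 genes called in opposite directions. Mki67, Aurka, Kif18b, Pcna, Osm, Il2rb, Socs3, Bcl6, Il21, Pdcd1 and the members listed as not called were chosen after their values were seen. The lists were written from memory of the pathways. A gene that met the rule and a marker gene are not reported here. All 75 named genes matched GENCODE M21, 73 are protein coding, and 21 share exon bases with another gene. Not all of the 21 are marked above. Unmarked ones include Lig1 with Zswim9, Tk1 with Afmid and Itga4 with Cerkl on the other strand. Ifnar2 shares such bases with Gm21970 on the same strand. Coordinates are those of the deposited tables. Promoters are RefSeq sequences on GRCm38 (mm10). Alternatives were the fit without the block, DESeq2 1.42.0, limma-voom and limma 3.58.1 on log2(RPKM + 1) or log2(RPKM + 0.1), RLE factors or totals, other filters and leaving out each library.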

Additional observations from a re-analysis of the deposited data

Results flagged for a closer look

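The interaction is itself a test of whether the STAT3KO effect differs between the lineages, so the called genes that the naming rule gave are listed here by that test. It called 403 genes, 259 lower and 144 higher. At the lower end the differences (log2 scale, CD8 minus CD4) were -2.38 for Nos1, -2.08 for Klrb1b, -1.93 for Klrk1, -1.80 for Nedd4, -1.73 for Ccl5, -1.66 for Pls1, -1.65 for Fcer1g, -1.57 for Eomes, -1.56 for Faxc, -1.55 for Heatr9, -1.51 for Tanc2 and -1.48 for Igfbp7. At the higher end they were 3.26 for Cebpa, 2.25 for Esm1, 2.13 for H2-Ob, 1.91 for Matk, 1.88 for Stom, 1.76 for Tox2, 1.74 for Bambi-ps1, 1.63 for Rab31, 1.62 for Tspan5, 1.53 for Trerf1 and 1.49 for Otud3.

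In the cell cycle and Myc lists the values were -1.07 for Lig1, -0.97 for Tk1, -0.96 for Cdc45, -1.14 for Cdc25c, -1.13 for Spc24, -1.11 for Cdca8, -1.07 for E2f1, -0.74 for Rrm1, -0.74 for Rrm2, -0.88 for Mcm5, -0.55 for Plk4, 0.57 for Cdkn1b, 0.56 for Npm1 and 1.23 for Rb1. Killer cell genes had -1.10 for Gzmk, -0.74 for Prf1, -0.47 for Gzmb, -0.95 for Nkg7, -0.75 for Ctsw and -1.01 for Klrg1. Regulators and receptors had -0.91 for Prdm1, -0.58 for Ikzf3, -1.32 for Tnfrsf8, -1.06 for Havcr2, -0.65 for Cd96, -0.83 for Il10ra, -0.72 for Il15ra, -0.81 for Itga1, -0.54 for Itga4, 0.61 for Nt5e, 0.94 for Ifnar2, 2.50 for Il23r, 1.06 for Cxcr5 and 0.94 for Hif1a. Interferon-stimulated and metabolic genes had 1.28 for Ifi27l2a, -0.65 for Gbp7, -0.63 for Gbp3, 1.54 for Aldoc and 3.46 for Acsl3. Genes called in opposite directions had -1.41 for Myo1e, -1.06 for Ajuba, 1.03 for Otud1, 0.96 for Trp53inp1, 0.89 for Dcun1d4, 0.87 for Gpcpd1 and 0.79 for Actn1. Groups of 2 libraries are too small for a test of single outlying libraries.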

How the results depend on the processing

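Every one of the 403 called genes that had a value kept the sign of its difference in all 18 alternatives. The alternatives reuse the libraries that chose these genes, so the kept sign is no separate support. The number of calls was what moved. The replicate block moved it most. Without it the count of called differences was 0 (0 higher, 0 lower), the smallest adjusted p was 0.0916, the STAT3KO effect in CD4 T cells was called for 1444 genes (3747 with the block), and the STAT3KO effect in CD8 T cells for 257 (2258 with the block). Other counts of called differences were 558 by DESeq2 (386 of them among the 403), 410 by limma-voom, 414 with RLE factors, 440 with total counts, and 391 at a mean log2 CPM of at least 3. Without the filter there were 632 (252 higher), on log2(RPKM + 1) 301 (158 lower, 52.5% of the calls against 64.3%), on log2(RPKM + 0.1) 259 (156 lower), and on log2(RPKM + 1) without a filter 16 (11 higher, 5 lower), where 545 genes were called in CD8 T cells. Leaving out a library gave 3 to 633 calls, 1 to 202 higher and 2 to 431 lower, with the lowest counts without STAT3KO CD4 replicate 2. These fits called 1418 to 4190 genes in CD4 and 351 to 2631 in CD8 T cells, and a group left with 1 library was assumed to vary like the others. Lower genes made up 50.7% of the calls without STAT3KO CD8 replicate 1 and 69.3% without STAT3KO CD8 replicate 2. Of the 69 called genes named, 69 lost their call without the block and 67 without STAT3KO CD4 replicate 2. Values with no call that changed sign were Stat3 (-0.225 to 0.037 over the fits that left out a library), Cd4 (-1.26 to 1.88), Cd8a (-1.33 to 1.63) and Cd8b1 (-0.472 to 0.371). DESeq2 gave no adjusted p for 1 named gene. The cause of these shifts was not tested.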

Other observations

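The following genes had a called difference unless stated otherwise. They were chosen after their values were seen and stand for no family. Fas, the receptor that triggers apoptosis, had 69.3 and 102 CPM in WT CD4, 23.2 and 29.3 CPM in STAT3KO CD4, 23.6 and 33.5 CPM in WT CD8, and 24.6 and 19.2 CPM in STAT3KO CD8 libraries (difference 1.34, SE 0.26, edgeR adjusted p 0.0214). Tnfrsf26, Tnfrsf22 and Tnfrsf23, neighbors on chromosome 7, had differences of 0.85, 0.86 and 1.44. Tnfrsf26 fell from 121 and 176 CPM to 43.1 and 60.1 CPM in CD4 and from 31.0 and 53.5 CPM to 20.9 and 31.4 CPM in CD8 T cells. In the other direction, the serpins Serpinb9, which inhibits granzyme B, Serpinb9b and Serpinb6b, neighbors on chromosome 13, had differences of -0.91, -1.33 and -0.94, and all rose in both lineages. Serpinb9 went from 342 and 301 CPM to 783 and 795 CPM in CD4 and from 823 and 726 CPM to 967 and 1054 CPM in CD8 T cells.

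Zfp942, a zinc finger gene, went from 24.9 and 24.5 CPM to 48.3 and 49.3 CPM in CD8 T cells, with 42.2 and 44.3 CPM in WT CD4 and 43.5 and 43.2 CPM in STAT3KO CD4 libraries (difference 0.98, SE 0.12, edgeR adjusted p 0.00471). It belongs to a large family of similar sequences, so its counts are uncertain. Cebpd, like Cebpa a member of the C/EBP family, fell in CD4 T cells from 18.2 and 10.0 CPM to 0.950 and 0.960 CPM (difference 2.56, SE 0.47). Stat5a, which lies beside Stat3 and shares exon bases with that gene, had 185 and 209 CPM in WT CD4, 81.3 and 77.3 CPM in STAT3KO CD4, 104 and 109 CPM in WT CD8, and 78.3 and 75.2 CPM in STAT3KO CD8 libraries (difference 0.84, SE 0.12), while Stat5b was not called (0.24).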
